A study of Chlamydomonas reinhardtii with 15 samples.

Results

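ECP76 and ECP88 are genes of the green alga Chlamydomonas reinhardtii that encode extracellular polypeptides made under sulfur starvation. They were chosen by name, as the transcript models that the tables given with the study call ECP76 and ECP88, and they make up 2 of the 14557 transcript models on the array. Each model was represented by 3 probes, numbered here as on the array, and all 6 probes entered the tests. ECP76 is model 130684, locus CHLRE_06g288550v5 of the RefSeq gene table, and ECP88 is model 137329, locus CHLRE_12g556000v5. The genes lie on different chromosomes, and the table gives neither of them a symbol.

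When sulfate runs out, Chlamydomonas is known to secrete arylsulfatases that release sulfate from organic esters, to make transporters for sulfate, and to spare sulfur elsewhere in the cell. The extracellular polypeptides belong to this response. Their proteins contain almost no sulfur amino acids, and they resemble the hydroxyproline-rich proteins of the algal cell wall. Their production in place of wall proteins that contain sulfur is regarded as a way of saving sulfur.

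The data were 15 arrays with 2 colours, each setting RNA of a sulfur-starved culture against RNA of the same strain at 0 h. According to the labels the 0 h RNA carried Cy3 (green) and the starved RNA Cy5 (red), and no exchange of the dyes was stated. The strains were cc3491, cc125 and 4A+, which are wild types, and npq4, an insertional mutant that lacks LHCSR3, a stress-related chlorophyll-binding protein, and for which 4A+ was the control. All were grown in TAP medium, an acetate medium, and starved in the same medium without sulfur for 24, 48, 72 and 96 h. Every combination of strain and time had a single array, and npq4 had none at 72 h. Each RNA was a pool of biological samples. The replicates of a strain are thus its time points, and p-values measure only the spread between these arrays. The 4 slides held 1 strain each, so slide and strain cannot be told apart.

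The study names 2 LHCSR3 genes as knocked out in npq4, and only the 1 model with the symbol LHCSR3 was examined, first of all. None of the 3 LHCSR3 probes was well above background on any npq4 array, whereas 3 of them were in cc3491, 3 on the arrays labelled cc125 and 2 in 4A+. Of 43671 probes, 16686 to 29085 on an array were well above background in green, and in red 8717 to 12412 in 4A+ and 14343 to 26590 elsewhere. The arrays labelled cc125 ran against the others. The mean log2 ratios of these arrays over all 43671 probes had a Pearson correlation of -0.49 with those of cc3491, -0.34 with 4A+ and -0.41 with npq4, whereas cc3491, 4A+ and npq4 were correlated at 0.54 to 0.68 with each other. These are correlations across probes, which are not replicates. On the 4 arrays labelled cc125 the slide identifier in the file header also differed from that in the label, while it was the same on the remaining 11 arrays. Their highest raw signals were 154158 to 269256 in green and 464637 to 485349 in red, whereas 65529 was the highest elsewhere. Neither the direction of starvation on these 4 arrays nor which hybridisation their files hold is therefore settled. Their values are given as labelled, the gene means, list counts and slopes also with the sign turned, and the calls of both genes in the other strains also without them.

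Both genes were much higher in starved cells than at 0 h in cc3491, 4A+ and npq4. The clearest measurements came from probe 1 of each gene, which was well above background in both channels on all 15 arrays. The log2 ratio of red over green, with a background offset of 50 and loess within each array, was used throughout.

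For ECP76 probe 1 the log2 ratio in cc3491 was 5.86 at 24 h, 5.65 at 48 h, 4.69 at 72 h and 5.01 at 96 h. In 4A+ it was 4.83, 5.26, 4.62 and 4.62 at the same times, and in npq4 it was 3.80 at 24 h, 4.30 at 48 h and 4.49 at 96 h. The 11 arrays all lay above 3.7, and the ranges of cc3491 and 4A+ overlapped, while every npq4 value lay below every cc3491 value. With the scanner software's own ratio, npq4 (4.97 to 5.57) and cc3491 (4.57 to 6.37) overlapped as well. The mean for cc3491 was 5.30 ± 0.54 (SD, n = 4), a 39.5-fold higher signal in starved cells. For 4A+ it was 4.83 ± 0.30 (SD, n = 4) or 28.5-fold, and for npq4 4.20 ± 0.36 (SD, n = 3) or 18.3-fold. The arrays labelled cc125 gave -3.97, -4.71, -5.05 and -5.25 from 24 to 96 h, with a mean of -4.75 ± 0.56 (SD, n = 4), all as labelled.

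For ECP88 probe 1 the log2 ratio in cc3491 was 4.28 at 24 h, 5.54 at 48 h, 4.91 at 72 h and 5.04 at 96 h. In 4A+ it was 4.10, 4.34, 4.55 and 4.30, and in npq4 it was 3.87 at 24 h, 4.47 at 48 h and 4.37 at 96 h. The ranges of the 3 strains overlapped. The mean for cc3491 was 4.94 ± 0.52 (SD, n = 4), or 30.7-fold. For 4A+ it was 4.32 ± 0.19 (SD, n = 4) and for npq4 4.24 ± 0.32 (SD, n = 3), or 18.9-fold. The arrays labelled cc125 gave -4.10, -5.52, -6.19 and -5.00, with a mean of -5.20 ± 0.88 (SD, n = 4), and lay on the other side of 0 from all other arrays.

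**Figure D1:**
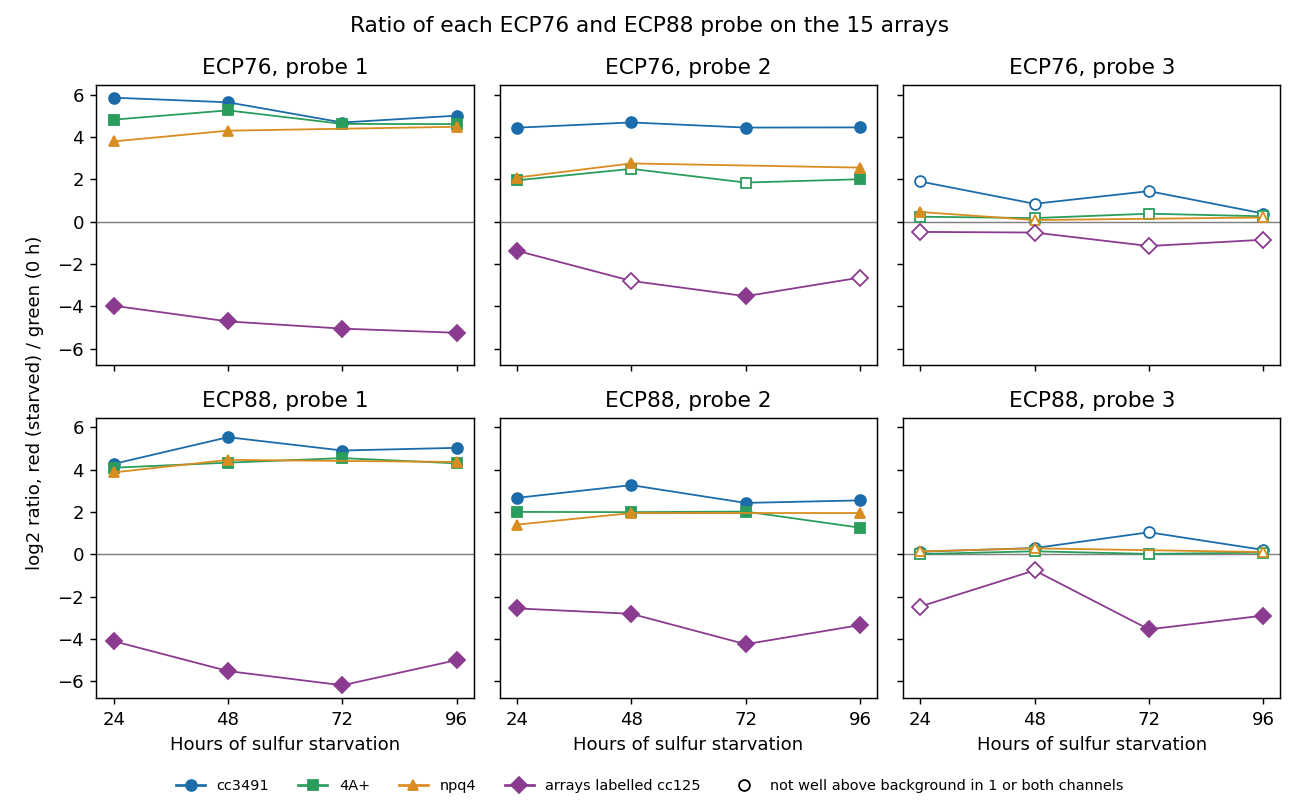
Log2 ratio of red (starved) over green (0 h) for the 3 probes of ECP76 (upper row) and ECP88 (lower row) against hours of sulfur starvation, with 1 point per array, a line per strain and no npq4 array at 72 h. Probe 1 of both genes lay between 3.80 and 5.86 in cc3491, 4A+ and npq4 and below -3.9 on the arrays labelled cc125, and open symbols, most of them of probe 3, mark values not well above background in 1 or both channels.

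Probe 2 gave the same direction at smaller ratios. For ECP76 probe 2 the log2 ratio in cc3491 was 4.45, 4.69, 4.45 and 4.46 from 24 to 96 h, a mean of 4.51 ± 0.12 (SD, n = 4). In 4A+ the values were 1.96, 2.499, 1.85 and 2.01, and in npq4 2.09, 2.76 and 2.56. The cc3491 values lay clear of those of 4A+ and npq4 with the offset of 50, but not with the scanner software's own ratio, which was 4.76 to 6.21 in cc3491 (mean 5.67) and 5.22 to 6.61 in 4A+ (mean 6.02). In 4A+, green was not well above background at 48 and 72 h, where the net signals were 7 and 8 intensity units. The ratio on the arrays labelled cc125 was -1.37, -2.80, -3.52 and -2.64, and red was not well above background on 2 of the 4 arrays.

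For ECP88 probe 2, well above background in both channels on all 15 arrays, the log2 ratio in cc3491 was 2.67, 3.27, 2.43 and 2.55. It was 2.01, 1.997, 2.02 and 1.26 in 4A+ and 1.41, 1.95 and 1.96 in npq4. With the offset, all 4 values of cc3491 were above those of 4A+ and npq4, which overlapped. With the scanner software's ratio cc3491 (2.25 to 3.48, mean 2.91) and 4A+ (2.80 to 3.44, mean 3.01) overlapped as well. As labelled, the ratio in cc125 was -2.55, -2.81, -4.25 and -3.34.

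Probe 3 was dim. The study's methods state that a further probe per transcript was added, based on an earlier array. According to the study, probes of that array gave lower log2 ratios, and many could cross-hybridise, so their data were left out of its analysis. Whether probe 3 of either gene is one of them was not determined, and probe 3 was kept in the gene means here. For ECP76 probe 3, no array of cc3491 or 4A+ had green well above background, and red was above on 3 of 4 arrays in cc3491 and on 1 of 4 in 4A+. Its log2 ratio was 1.90, 0.85, 1.45 and 0.39 in cc3491 and 0.17 to 0.38 in 4A+. Because green was only a bound, red was at least 2.21-fold above green in cc3491, where the mean log2 level was 6.80 in red and 5.65 in green. In npq4 both channels were above background only at 24 h, with net signals of 217 in green and 373 in red, and the ratios were 0.46, 0.08 and 0.20. The arrays labelled cc125 had green above background on 4 of 4 arrays and red on none, with green at least 1.58-fold above red.

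For ECP88 probe 3, green did not rise well above background on the 11 arrays of cc3491, 4A+ and npq4, and red was above on 2 of 4 arrays in cc3491, none in 4A+ and 1 of 3 in npq4. The log2 ratio reached 1.04 at 72 h in cc3491 and otherwise lay between 0.02 and 0.30 in these strains. Labelled cc125, 4 of 4 arrays had this probe above background in green, and the ratio was -2.47, -0.76, -3.54 and -2.89. Its green level there was at least 5.51-fold that in cc3491, at least 5.23-fold that in 4A+ and at least 5.29-fold that in npq4. Each bound sets the brighter strain's mean log2 level against that of the dimmer one, in which an array counts with the dim probe's level or, if larger, with the least bright probe well above background. Levels of a single channel are open to dye bias, and they were not tested.

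The starvation response of each strain was asked next, with the value of a gene as the mean over its 3 probes, the dim probe 3 included. In cc3491 ECP76 reached a mean log2 ratio of 3.65 ± 0.33 (SD, n = 4), with Holm adjusted p = 2.47e-07 in limma, and ECP88 2.70 ± 0.29 (SD, n = 4), with adjusted p = 0.000153. Both were called, which required a Holm adjusted p below 0.05 over all 13465 tested models and a change of at least 2-fold. Of all tested models 3.35% were called in this strain. By size of the ratio ECP76 ranked 10 and ECP88 38 of 13465. At the level of single probes 4 of 6 were called, against 3.32% of all tested probes, namely probes 1 and 2 of both genes, and probe 3 did not pass for ECP76 (1.15, Holm adjusted p = 1 in limma) or ECP88 (0.42, adjusted p = 1). The study had picked these genes from the same arrays, so the calls are not independent evidence.

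In 4A+ the mean ratio was 2.39 ± 0.17 (SD, n = 4) for ECP76 and 2.07 ± 0.14 (SD, n = 4) for ECP88. Both were called with limma Holm p of 4.38e-05 and 0.00328, beside 3.27% of all models, and they ranked 73 and 119. Of the probes 3 of 6 were called, beside 2.82% of all probes: probes 1 and 2 of ECP76 and probe 1 of ECP88. Probe 2 of ECP88, at 1.82, missed the threshold with a Holm p of 0.108. The call of ECP88 was lost without the 48 h array (2.04, Holm adjusted p = 0.0511 in limma) and without the 72 h array (2.03, adjusted p = 0.0517), and with the normexp background fitted on all spots (2.01, adjusted p = 0.0502). When any 1 array of the strain was left out, 2 probes were called.

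In npq4 the mean ratio was 2.30 ± 0.16 (SD, n = 3) for ECP76 and 2.06 ± 0.23 (SD, n = 3) for ECP88. Both were called, with limma Holm p of 0.000377 and 0.0171, beside 1.88% of all models, and they ranked 46 and 79. Of the probes 3 of 6 were called, the same ones as in 4A+, beside 1.51% of all probes. The call of ECP88 was lost when any 1 of the 3 arrays was left out, with ratios of 1.98 to 2.19 and limma Holm p of 0.158 without the 24 h array, 0.465 without 48 h and 0.394 without 96 h. The number of called probes was then 2. With normexp fitted on all spots neither gene was called in npq4, at 1.86 for ECP76 and 1.74 for ECP88, with limma Holm p of 0.35 and 0.888.

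Under the label cc125 the mean ratio was -2.69 ± 0.55 (SD, n = 4) for ECP76 and -3.62 ± 0.77 (SD, n = 4) for ECP88, as labelled, and 2.69 and 3.62 with the sign turned. Both were called, with limma Holm p of 1.05e-05 and 4.52e-06, beside 2.76% of all models. On the side of 0 on which ECP76 lay, whichever sign is used, 23 models lay farther out, and 11 did so for ECP88. Fitted on these 4 arrays alone, neither gene was called (limma Holm adjusted p = 1 for both) and none of the probes was. The values by the scanner software's ratio were -5.12 and -5.21. Of the probes 4 of 6 were called, beside 2.7% of all probes, again probes 1 and 2 of both genes. Set against cc3491, the cc125 arrays as labelled gave differences of -6.35 and -6.32, and 4 of the 6 probes were called, beside 6.22% of all models and 5.43% of all probes. Left out of the fit, these 4 arrays changed no call of either gene in cc3491, 4A+ or npq4, where the Holm p without them ranged from 3.77e-07 to 0.000199.

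The treatment of low signals moved the size of the ratios. The offset of 50 draws ratios of dim channels towards 0. With the scanner software's own ratio, which has no such offset, ECP76 had a mean log2 ratio of 5.15 in cc3491, 4.89 in 4A+ and 3.35 in npq4, and probe 1 had 5.51, 5.86 and 5.18. For ECP88 it was 3.53, 3.25 and 2.71. As the mean over probes 1 and 2 only, with the offset of 50, ECP76 had 4.91 in cc3491, 3.46 in 4A+ and 3.33 in npq4. ECP88 then had 3.84, 3.07 and 3.00. Both genes were called in each of these strains without probe 3, ECP88 with a limma Holm p of 9.92e-05 in 4A+ and 0.000695 in npq4. Both genes stayed positive in the 3 strains under every alternative run, most of which are shown in the plot of the settings.

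**Figure D2:**
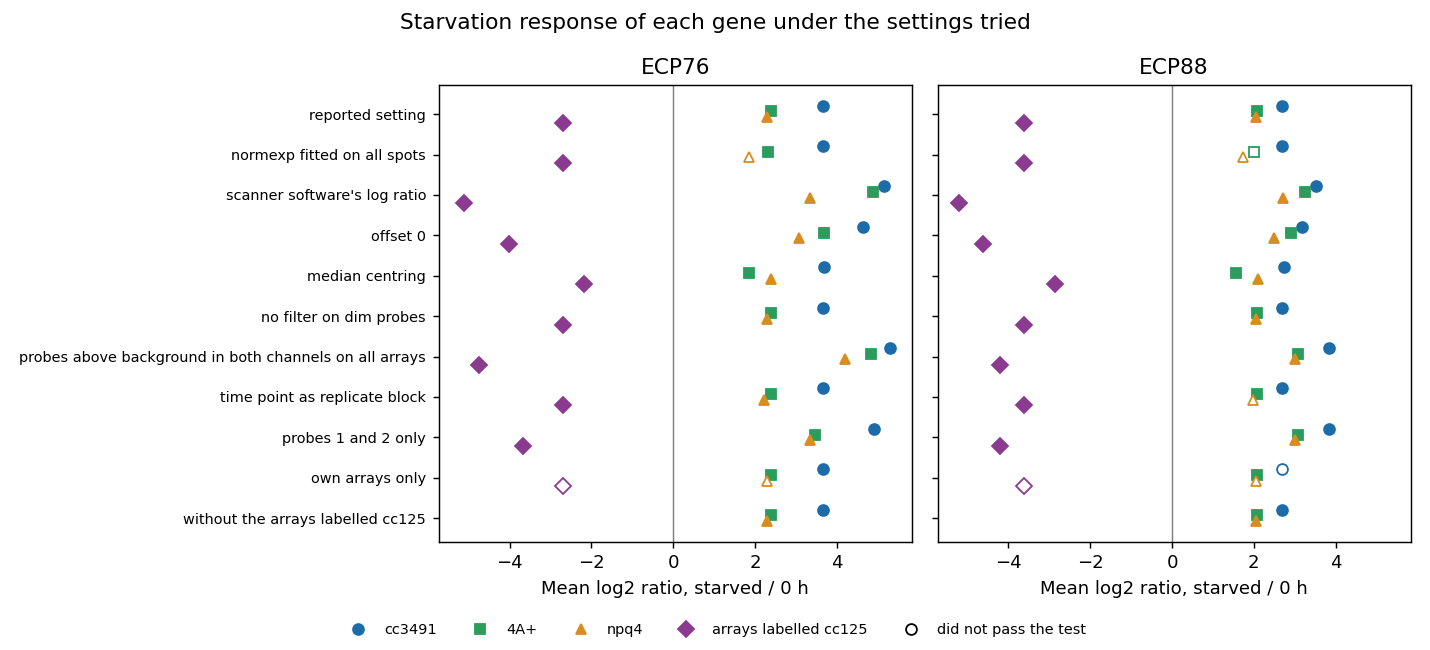
Mean log2 ratio of starved over 0 h for ECP76 (left) and ECP88 (right), as the mean over the tested probes, under each setting named on the vertical axis, with a symbol per strain. Filled symbols passed the Holm test with at least 2-fold change, and the ratios of ECP76 in cc3491 lay between 3.65 and 5.30 in this plot.

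Whether the response differed between strains was tested on the strain means. For npq4 minus its control 4A+ the difference was -0.09 for ECP76 (95% interval -0.64 to 0.46) and -0.01 for ECP88 (-0.70 to 0.68), with a limma Holm adjusted p = 1 for both. A difference of up to 0.64 for ECP76 or 0.70 for ECP88 in favour of 4A+ lies within these intervals. Here 0.951% of all models and 0.752% of all probes were called, and none of the 6 ECP probes, for which the smallest unadjusted limma p was 0.08. With median centring in place of loess the differences were 0.51 and 0.56, and with the scanner software's ratio they were -1.55 and -0.53, and none of these was called.

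The values of ECP76 in 4A+ and npq4 were lower than in cc3491. The difference was -1.26 for 4A+ minus cc3491 (95% interval -1.77 to -0.75, Benjamini-Hochberg adjusted p = 0.00237, limma) and -1.35 for npq4 minus cc3491 (-1.90 to -0.80, adjusted p = 0.00606). The Holm adjusted p of limma was 1 for both, so neither was called. All 4 cc3491 ratios of the gene, 3.29 to 4.07, lay above those of 4A+, 2.28 to 2.65, and of npq4, 2.12 to 2.42. On probe 1 alone the ranges of cc3491 and 4A+ overlapped. How many of all models separate in this way was not determined. Of all models 1.51% were called for 4A+ minus cc3491 and 0.282% for npq4 minus cc3491. The probes differed by -0.47 and -1.11 (probe 1), -2.43 and -2.04 (probe 2) and -0.88 and -0.90 (probe 3) in the 2 comparisons. With the scanner software's ratio the gene differed by -0.26 for 4A+ minus cc3491 and by -1.81 for npq4 minus cc3491, and neither was called. By that ratio probes 1 and 2 were higher in 4A+ (5.86 and 6.02) than in cc3491 (5.51 and 5.67), and only the dim probe 3 was lower (2.80 against 4.28). With median centring 4A+ minus cc3491 was -1.81, which was called with a limma Holm p of 0.00343, and npq4 minus cc3491 was -1.30, which was not called. The red channel of 4A+ held the fewest probes above background, and its part in the difference between 4A+ and cc3491 was not tested.

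For ECP88 the differences were -0.63 (95% interval -1.27 to 0.01) for 4A+ minus cc3491 and -0.64 (-1.33 to 0.06) for npq4 minus cc3491, with a limma Benjamini-Hochberg adjusted p of 0.163 and 0.254. The scanner software's ratio gave -0.28 for 4A+ minus cc3491 and median centring -1.17, and for npq4 minus cc3491 -0.95 with normexp fitted on all spots was farthest from 0, and none was called. The 4 cc3491 ratios, 2.36 to 3.04, did not overlap with 1.88 to 2.20 in 4A+ or 1.81 to 2.24 in npq4. On probe 1 alone, however, the ranges of these strains overlapped. With the scanner software's ratio those of cc3491 and 4A+ also overlapped on probe 2. How many of all models separate in this way was not determined. Of the 6 ECP probes none was called in either comparison, beside 1.47% and 0.387% of all probes. Without the arrays labelled cc125 1 of the 6 was called in each.

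Time was tested next. Over the 11 arrays of cc3491, 4A+ and npq4 the slope of the log2 ratio was -0.076 per 24 h for ECP76 (95% interval -0.20 to 0.05) and 0.030 for ECP88 (-0.10 to 0.16), with a limma Holm adjusted p = 1 for both. Among these 3 strains the range over time was widest for ECP76 in cc3491, where the gene's ratio was 4.07, 3.73, 3.53 and 3.29 from 24 to 96 h. Its probes did not share this course. Probe 2 stayed between 4.45 and 4.69, probe 1 was 4.69 at 72 h and 5.01 at 96 h, and the dim probe 3 was 1.90 at 24 h and 0.39 at 96 h. The ratio of ECP88 in cc3491 was 2.36, 3.04, 2.80 and 2.60, lowest at 24 h. Of all models 1 passed the Holm test for the slope, which is 0.00743%, and of all probes 0% did, against 2582 at an unadjusted p under 0.05 and 19 after Benjamini-Hochberg adjustment in limma.

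The ratios of the 2 genes were then compared. Over all 15 arrays the root mean square difference of their log2 ratios was 0.78. The medians to the 11036 other models with at least 2 tested probes were 2.87 from ECP76 and 2.76 from ECP88. The median ratio of all models lay near 0 (0.009 in cc3491), so these medians mainly reflect how far the 2 genes lie from 0. They do not measure likeness of profile. As means over 3 probes, the dim probe 3 included, ECP88 minus ECP76 was -0.96 ± 0.50 (SD, n = 4) for cc3491, -0.32 ± 0.17 (SD, n = 4) for 4A+ and -0.24 ± 0.09 (SD, n = 3) for npq4. It was negative on each of these arrays, and in cc3491 it was -1.71 at 24 h and -0.69 to -0.73 later. On probe 1 alone the order was mixed. There ECP88 lay above ECP76 in cc3491 at 72 h (4.91 against 4.69) and 96 h (5.04 against 5.01). It also did so in npq4 at 24 h (3.87 against 3.80) and 48 h (4.47 against 4.30), and lay below it on the other arrays of these strains. In cc125, as labelled, the difference was -0.92 ± 0.45 (SD, n = 4), and there the ratio of ECP88 was farther from 0. Smaller differences from ECP76 than that of ECP88 were found for 2 models, HAP1, a putative haloperoxidase, at 0.73, and SBD1, a selenium binding protein, at 0.74. Over the 11 arrays of cc3491, 4A+ and npq4, however, the Pearson correlation with ECP76 was 0.10 for SBD1, 0.92 for HAP1 and 0.80 for ECP88. The 2 after ECP88 were HTB10, a histone H2B, at 0.83, and a model without a symbol at 0.87. For ECP88 the nearest model was 148875, which has no symbol, at 0.72, followed by ECP76 and by 3 models without a symbol at 0.90 to 0.94. Over the same 11 arrays, however, the Pearson correlation with ECP88 was -0.37, -0.39 and 0.37 for these 3 models, and 0.72 for 148875. All these values rest on the same 15 arrays. A root mean square difference is the same whichever sign the arrays labelled cc125 are given, but ECP88 minus ECP76 on those arrays becomes positive with the sign turned.

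The levels of the single channels were examined as well. These log2 levels were taken after loess and Aquantile normalisation and are given as a description. For ECP76 probe 1 in cc3491, red was 12.49, 12.98, 13.74 and 12.67 from 24 to 96 h, and green was 6.63, 7.33, 9.05 and 7.66. Red of this probe was 12.41 to 13.26 in 4A+ and 10.98 to 11.88 in npq4, and green was 7.78 to 7.99 and 7.07 to 7.39. In these strains red was high and green low on every array. Arrays labelled cc125 had green levels of 10.13, 11.87, 12.71 and 11.88 and red levels of 6.15, 7.16, 7.65 and 6.63, so that green was the bright channel and red the dim one.

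ECP88 probe 1 followed the same arrangement. In cc3491 red was 9.83, 12.03, 13.10 and 11.43, and green was 5.55, 6.49, 8.19 and 6.39. Labelled cc125, green was 10.45, 12.54, 14.04 and 11.49, and red was 6.35, 7.02, 7.86 and 6.49. The bright channel was lowest at 24 h and highest at 72 h in both sets of arrays, although it was red in one and green in the other. No member probe was saturated on any array.

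**Figure D3:**
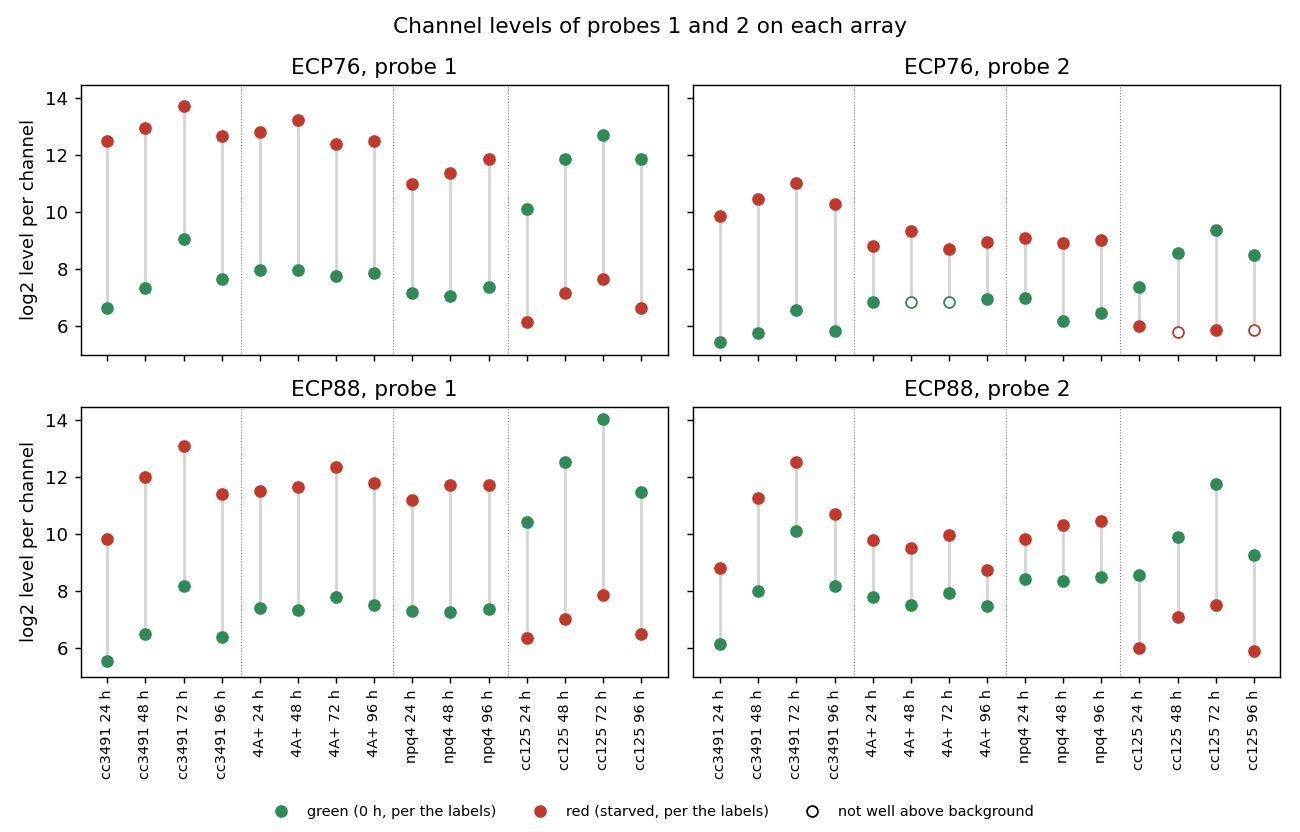
Log2 level in green and in red for probes 1 and 2 of ECP76 (upper panels) and ECP88 (lower panels) on each of the 15 arrays, joined by a grey line per array. Red lay above green on all arrays of cc3491, 4A+ and npq4 and green above red on all 4 arrays labelled cc125, and open symbols were not well above background.

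Green of these probes, which by the labels held 0 h RNA on every array, varied widely in cc3491. Across the 4 arrays the SD of the green log2 level was 1.02 for ECP76 probe 1, 1.10 for ECP88 probe 1 and 1.62 for ECP88 probe 2. The median over the 7554 probes above background in both channels on all arrays was 0.109, and only 10, 8 and 2 of them exceeded the 3 ECP probes. For ECP88 probe 2 green was 6.15 at 24 h, 8.01 at 48 h, 10.12 at 72 h and 8.17 at 96 h, and red was 8.82, 11.29, 12.55 and 10.73, so that both channels were lowest at 24 h and highest at 72 h while the ratio stayed between 2.43 and 3.27. Green of the same probe had an SD of 0.222 in 4A+ and 0.070 in npq4, where the medians of all bright probes were 0.074 and 0.107. For ECP76 probes 1 and 2 and ECP88 probe 1 it was 0.102, 0.053 and 0.204 in 4A+ and 0.165, 0.417 and 0.053 in npq4. The dim probe 3 of ECP76 had 1.07 in npq4, where its green was above background only at 24 h. The steadier channel on the arrays labelled cc125 was red, with a median SD over the bright probes of 0.130, against 0.705 in green. In cc3491, 4A+ and npq4 the medians in red were 0.504, 0.384 and 0.449.

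Other genes of the sulfur response were set beside ECP76 and ECP88, as a list of 13 genes for sulfur acquisition and assimilation, all of them measured. In cc3491, 9 were called higher and 2 lower, beside 3.35% of all models, with a list median of 1.82 against 0.01 for all models. Many of these genes had already been reported by the study from its sulfur-starved cultures, so the counts are not independent evidence. The 4 with the largest changes were ARS1 and ARS2, periplasmic arylsulfatases, at 3.60 ± 0.23 and 2.70 ± 0.53 (SD, n = 4), SLT1, a sodium/sulfate cotransporter, at 3.05 ± 0.79 (SD, n = 4), and ATS2, an ATP sulfurylase, the first enzyme of sulfate assimilation, at 2.80 ± 0.25 (SD, n = 4). ECP76 was at 3.65 and ECP88 at 2.70 in the same fit. Without the 48 h array of cc3491 the list had 6 genes called higher, and SLT1 was lost, at 2.93 with a limma Holm p of 0.12, as it was without the 72 h array, at 2.74 with an adjusted p of 0.0929. The 2 genes called lower, named after their values were seen, were ARS5 and SLT3, a further arylsulfatase and a further cotransporter, and 1 gene was called lower without the 48 h array. Within the arrays of cc3491 alone, 1 gene of the list was called higher, ARS1, and 1 lower, and median centring also ended the call of SLT1 (3.03, limma Holm adjusted p = 0.0897).

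In 4A+, 6 of the 13 genes were called higher and 2 lower, beside 3.27% of all models, with a median of 1.03. When any 1 array was left out, 3 to 4 were higher. In npq4, 7 were called higher and 2 lower, beside 1.88% of all models, with a median of 1.41. When any 1 array was left out, 3 to 5 were higher and 1 lower. With normexp fitted on all spots 4 were higher and none lower in npq4, with median centring 2 were higher in 4A+, and within own arrays 2 were higher in 4A+ and none in npq4. The 2 lower were ARS5 and SLT3 in both strains. In cc125, as labelled, 1 was called higher and 2 lower, beside 2.76% of all models, and with the sign turned 2 higher and 1 lower. As labelled these were SLT3 higher and ATS2 and SQD1, an enzyme of sulfolipid synthesis, lower, with a median of -0.19. Of the genes named above for cc3491, ARS1 was at -0.58, ARS2 at -0.03, SLT1 at -1.47 and ATS2 at -1.96 on these arrays as labelled. Median centring gave 3 higher and none lower. The lower calls there dropped to none without the 72 h array and without the 96 h array, and to 1 without the 48 h array.

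Genes for other proteins of the cell wall and the extracellular space were also set beside ECP76 and ECP88, as a list of 7, all measured. None was called higher in cc3491 by limma, and none was positive at an unadjusted p under 0.05. Of all 13465 models only 198 were called higher, so the lack of such a call among 7 genes does not set the list apart. Beside 253 of the 13465 models called lower, 4 of the list were, with a list median of -1.31. They were VSP4 and VSP3, vegetative cell wall proteins rich in hydroxyproline, at -3.45 ± 0.48 and -1.31 ± 0.41 (SD, n = 4), PHC17, a pherophorin of the extracellular matrix, at -2.10 ± 0.19 (SD, n = 4), and HRP3, a hydroxyproline-rich protein, at -1.84 ± 0.24 (SD, n = 4). Without the 48 h array 2 remained called, as VSP4 (-3.24, limma Holm adjusted p = 0.0847) and VSP3 (-1.26, adjusted p = 0.0995) were lost. VSP4 was also lost without the 96 h array, at -3.41 with adjusted p = 0.0735. VSP3 was also lost without the 24 h array, at -1.22 with adjusted p = 0.0948, without the 72 h array, at -1.25 with adjusted p = 0.103, and without the arrays labelled cc125, with adjusted p = 0.0614 (limma). The scanner software's ratio left 2 called, without PHC17 (-2.57, limma Holm adjusted p = 0.0554) and VSP3 (-1.72, adjusted p = 0.163), the offset of 0 ended VSP3 (-1.62, adjusted p = 0.133), probes 1 and 2 alone ended VSP4 (-3.39, adjusted p = 0.0634), and within the arrays of cc3491 alone none of the 4 was called.

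In 4A+, 2 of the 7 genes were called lower, VSP3 and VSP4, beside 3.27% of all models called in either direction. In npq4 2 were, HRP3 and VSP4, beside 1.88%. The list medians were -0.03 and -0.37. No gene of the list was called higher in either strain by limma, where 138 and 91 of 13465 models were. At an unadjusted p under 0.05, 0 in 4A+ and 1 in npq4 were positive. Without any 1 of the arrays for 48, 72 and 96 h 1 gene was called lower in 4A+, and none was in npq4 without any 1 of its arrays. In cc125, as labelled, 1 gene, HRP3, was called higher, beside 2.76% of all models called in either direction, and 2 were without the 24 h array. With the sign turned it was called lower, and no other was called.

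**Figure D4:**
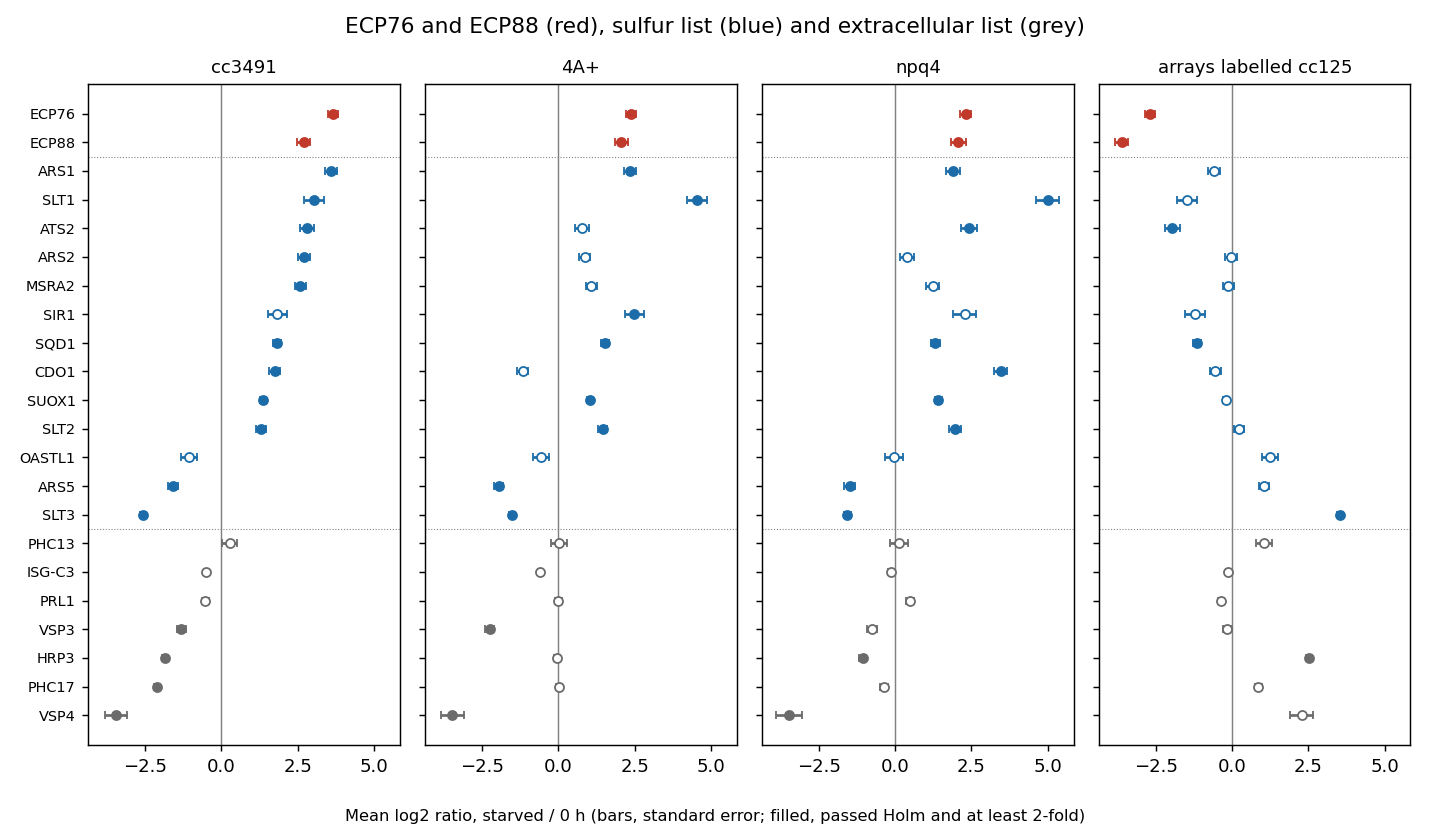
Mean log2 ratio of starved over 0 h in each strain for ECP76 and ECP88 (red), the 13 sulfur genes (blue) and the 7 extracellular genes (grey), ordered by their value in cc3491, with the standard error of the limma fit as bars. Filled symbols passed the Holm test with at least 2-fold change: both ECP genes in every panel, 9 sulfur genes higher and 4 extracellular genes lower in cc3491.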

How the data were processed

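Scanner output of 15 arrays was used. The authors deposited, for 45218 spots per array, the red and green intensity and the intensity of the background around the spot, without background correction or dye normalisation, and a log10 ratio from Agilent Feature Extraction 10.7.3.1. The deposited series matrix held the same log10 ratios (largest difference 0). With limma 3.58.1 in R 4.3.3 the background was corrected by normexp (offset 50). Its parameters were fitted on unmarked spots whose net signal exceeded -100, which was decided once the values had been seen. This was followed by loess within arrays, and outlier spots were left out. Tested were the 32061 probes that at least 3 arrays showed well above background in red or green, and models are means over their tested probes. The model had a coefficient for each strain, and p-values were adjusted by Holm over all tested models or probes. Testing against 0 takes no account of how 0 h cultures vary. Levels of 1 channel followed loess and Aquantile. The fits were tested on simulated data. The genes, lists and tests were chosen with earlier results of these data known. List genes are named by the 4 largest changes in cc3491, and nearest models by the 5 smallest differences. Arrays have few replicates per strain, which limits precision. Symbols came from the study's tables. RefSeq (assembly 5.5) paired 12302 models with loci, and no coordinates or sequences were used here.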

Additional observations from a re-analysis of the deposited data

Results flagged for a closer look

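The response of both genes differed between the arrays labelled cc125 and cc3491 by a test of the difference itself, as labelled. It was -6.35 for ECP76 and -6.32 for ECP88, with limma Holm p of 1.92e-08 and 3.38e-07, and every array of one strain lay opposite to every array of the other. With the sign of the arrays labelled cc125 turned, the differences were -0.96 and 0.92, and neither was called (limma Holm adjusted p = 1 for both). This comparison covers ECP76 and ECP88 only.

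Of 32 groups of 4 arrays examined for a value far from the others, 4 had one, and chance gives about 1 in 20. ECP76 as the mean of its probes was highest in 4A+ at 48 h, at 2.65, and its probe 2 was highest in cc3491 at 48 h, at 4.69. ECP88 probe 2 was lowest in 4A+ at 96 h, at 1.26. VSP3, a cell wall protein gene, was closest to 0 in cc3491 at 96 h, at -0.71.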

How the results depend on the processing

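The ratios of both genes were positive in cc3491, 4A+ and npq4 under all alternatives run. Under normexp fitted on all spots, ECP88 was no longer called in 4A+ (2.01) and npq4 (1.74), nor ECP76 in npq4 (1.86), and the ECP76 slope was 0.075. Within a strain's own arrays, calls were lost for ECP88 in cc3491 (2.70), for ECP76 (-2.69) and ECP88 (-3.62) in cc125 and for ECP76 (2.30) and ECP88 (2.06) in npq4, a fit with fewer samples. Turning the sign of cc125 gave 2.69 and 3.62 there and an ECP76 slope of 0.032, and including cc125 as labelled an ECP88 slope of -0.072. The scanner software's ratio gave an ECP88 slope of -0.069. Median centring turned npq4 minus 4A+ to 0.51 (ECP76) and 0.56 (ECP88) and called ECP76 for 4A+ minus cc3491 (-1.81). Benjamini-Hochberg adjustment called ECP76 for 4A+ minus cc3491 (-1.26) and npq4 minus cc3491 (-1.35). Unless the alternative's construction shows it, the cause was not tested.

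Leaving out 1 array at a time gave 2.03 to 2.13 for ECP88 in 4A+ and 1.98 to 2.19 in npq4, -0.14 to 0.0065 for ECP76 and -0.095 to 0.12 for ECP88 in npq4 minus 4A+, and slopes of -0.020 to 0.070 for ECP88. The time point as a replicate block gave 1.97 for ECP88 in npq4, which was then not called, and changed no other call of the 2 genes. With that replicate block 6 sulfur genes were called higher in cc3491, and the calls of SLT1 (limma Holm adjusted p = 0.165) and VSP4 (adjusted p = 0.126) were lost. The numbers mark time points and array positions only: of 21 pairs of arrays with equal times in different strains, 4 had deviations from the strain means correlated above 0.1. Models called under Benjamini-Hochberg numbered 1143 in cc3491 against 451, 1057 in cc125 against 371, 1079 in 4A+ against 440 and 990 in npq4 against 253, and 32, 26, 227 and 11 within own arrays, where 1, 0, 2 and 0 of the 6 ECP probes were called.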
